A study of Equus caballus with 12 samples.

Results

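Chaperones and protein folding enzymes were examined in pools of horse oocytes that had matured in vitro, by RNA sequencing of the 3′ ends of transcripts. The members were the genes of the deposited table whose Ensembl identifier is paired in the paper's Supplementary Files S1 and S2 with a name starting HSP, DNAJ, PDIA, PFDN, BAG, FKBP or PPI, or CCT and a digit, or with TCP1, CALR or CANX. This gave 40 of the 11425 genes listed: 10 cytosolic HSP70 and HSP90 proteins with their partners, 5 subunits of the cytosolic chaperonin, 4 prefoldin subunits, 10 proteins of the endoplasmic reticulum (ER), 3 mitochondrial chaperones and 5 nuclear proteins. The last 3, FKBP6, HSPB11 and PPIP5K2, are named like the others but are known for other roles. All samples were oocytes with a visible polar body, freed of cumulus cells, from slaughterhouse ovaries, pooled at an average of 23 per sample. FR oocytes were matured fresh (5 samples), and VMAT oocytes were matured and then vitrified and warmed (3 samples). VIM oocytes, called VGV in the labels, were vitrified immature, warmed and then matured (4 samples). Of 5 pools per group, the authors kept 5 of FR, 4 of VMAT and 4 of VIM by RNA amount and quality. They later removed 1 more VMAT pool for low RNA quality, low concentration and few reads. The labels do not say whether samples of a group came from separate collections, so p-values measure only the spread between these pools. In pooled oocytes, fewer oocytes that hold a transcript and less of it in each oocyte cannot be told apart.

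Chaperones bind proteins that are not yet folded, or that have lost their fold, and keep them from aggregating. In the cytosol, HSP70 proteins take up newly made chains with the help of J domain proteins, whose names start with DNAJ, and pass some of them on to HSP90 or to the ring-shaped chaperonin TRiC, which is served by prefoldin. The ER has its own HSP70 (HSPA5) and HSP90 (HSP90B1), a lectin cycle of calnexin and calreticulin, and disulfide isomerases, whereas HSPA9, HSPD1 and HSPE1 fold proteins that have been imported into mitochondria. A fully grown oocyte makes little new RNA, and relies on messages stored during growth until the embryo starts its own transcription.

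Names, and with them membership, depended in part on the measurements. The sheets of Supplementary File S1 used here stop part of the way through an order set by the authors' own fold change, lowest first, so a gene that was low against FR was more likely to have a name. In VIM vs. FR, 31.1% of the genes named in the first sheet had a higher mean log2 level in VIM, against 46.9% of all genes tested. In VMAT vs. FR, the shares were 17.8% in the second sheet and 50.3% of all genes tested. Genes named by Supplementary File S2, which does not follow this order, had shares of 51.0% and 48.4%. Of the 40 members, 25 were named by S2 and the other 15 by S1 alone. Directions against FR over the whole list are therefore given as a description only.

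Between 1636620 and 12166950 reads per library lay on genes, and the members took 0.99% to 1.49% of them. VMAT replicates 1 and 2 stood apart from the other libraries. VMAT replicate 2 had the most reads and held every member at 267 reads or more, whereas no other library had more than 35 of the 40 members above 30 reads. VMAT replicate 1 had the fewest reads, with 22 members above 30 reads, and a normalized count there stands for the smallest number of reads: 3 reads equal 9.34 in this library and 0.376 in VMAT replicate 2. Of 12 oocyte markers on a fixed list, 7 had a name, and they were above 30 reads in 72 of 84 values, with DPPA3, a maternal factor, at 4501 to 16505 in every library. Of 11 cumulus cell markers, only HAS2, the hyaluronan synthase of expanding cumulus, had a name, and it was above 30 reads in 12 of 12 libraries, at 254 to 2144. It lay at 641 to 2144 in VIM, 254 to 1755 in VMAT and 462 to 1239 in FR, and its part in the results was not tested. Of 3 blood cell markers, none had a name.

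The members differed in how many libraries held them. Above 30 reads in all 12 libraries were 15 members (37.5%): HSP90AA1, HSP90AB1, HSPA8, DNAJC2 and DNAJC21 in the cytosol, CCT2 of the chaperonin, PFDN4 of prefoldin, HSP90B1, CALR, PDIA4 and DNAJC1 in the ER, the nuclear DNAJC8 and PPIG, and HSPB11 and PPIP5K2. Of all genes, 6.43% reached this, and of all genes with a name 22.8%. The other 25 members were above 30 reads in 4 to 11 libraries, with a median of 8, and at 30 reads or fewer in the rest. Of the 480 values of the 40 members, 368 were above 30 reads, 56 were between 4 and 30 reads and 56 were at 3 reads or fewer. No mitochondrial member was among the 15. Being above 30 reads throughout did not make a level even: over the FR libraries, the highest value was 1.72 times the lowest for HSPA8 and 44.9 times for PPIP5K2. The limit of 30 reads was chosen with earlier results of these data known, and the division is a description.

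**Figure D1:**
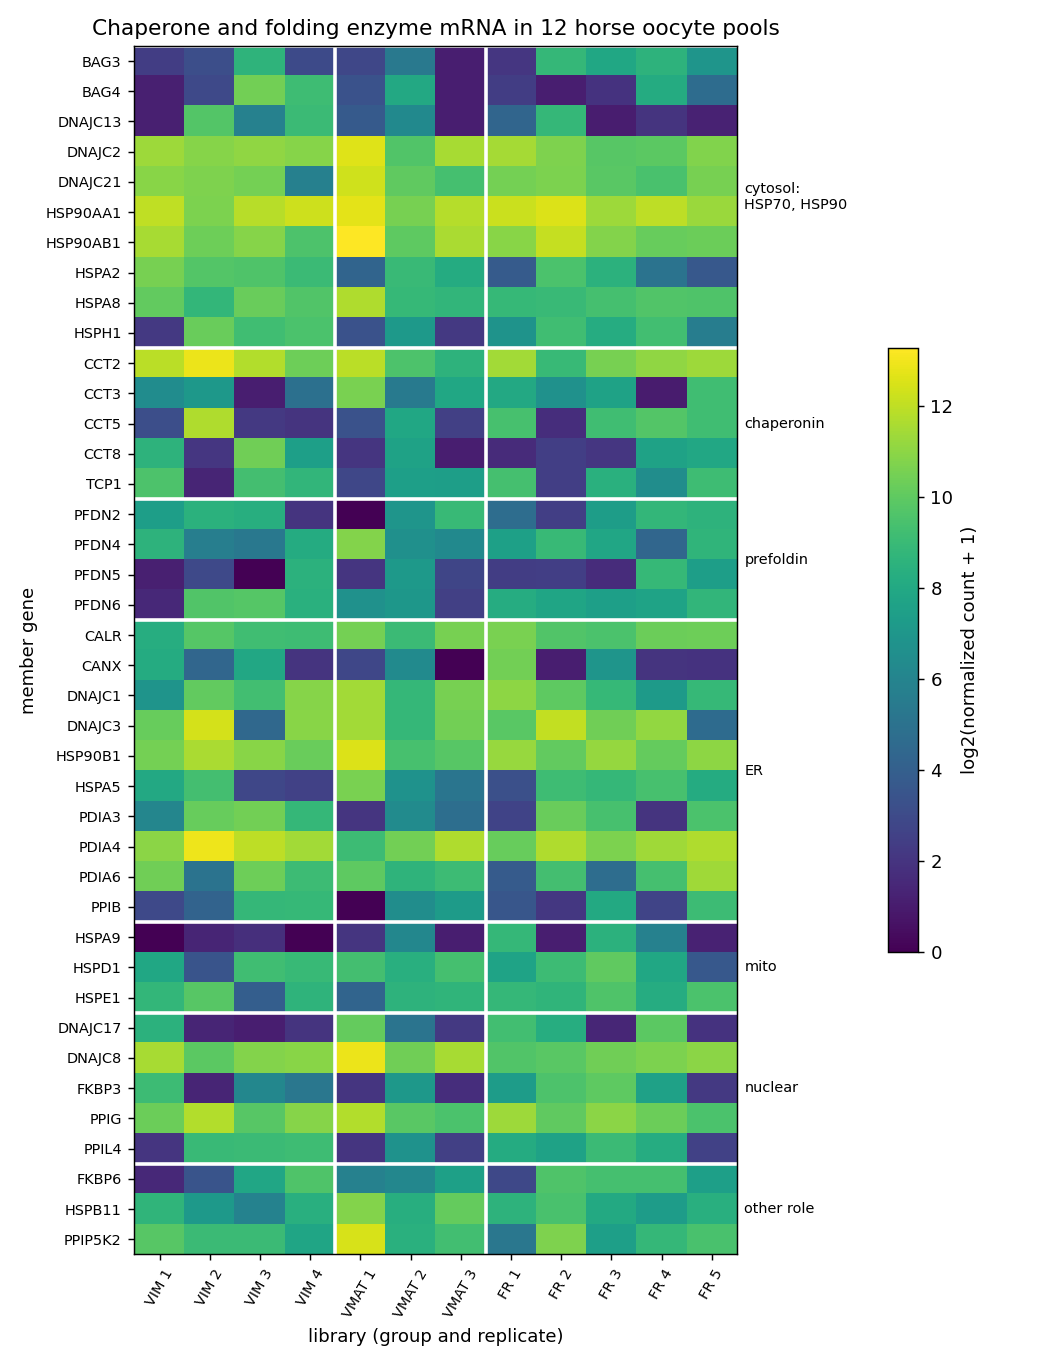
Level of each of the 40 members (rows, by role) in each of the 12 libraries (columns, by group and replicate), as log2 of the normalized count plus 1 (colour). Rows such as HSP90AA1 and HSPA8 are bright throughout, whereas most of the 25 other rows, such as CCT5, change between bright and dark within a group.

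Members above 30 reads were fewest in the least and most in the most deeply sequenced library. They were 29, 27, 32 and 32 of 40 in the VIM libraries, 22, 40 and 25 in VMAT and 28, 31, 35, 35 and 32 in FR. As a share of values, this was 75.0% in VIM, 72.5% in VMAT (58.8% without replicate 2) and 80.5% in FR. For all genes with a name, as every member has, it was 68.2%, 69.8% (56.3% without VMAT replicate 2) and 76.2%. For all genes it was 27.6%, 33.5% (22.4% without VMAT replicate 2) and 30.6%. The share was 80.0% in each group for the ER members, or 70.0% in VMAT without replicate 2. For the mitochondrial ones it was 50.0% in VIM, 66.7% in VMAT (50.0% without replicate 2) and 80.0% in FR. Depth moved with these numbers, since the least and the most deeply sequenced libraries were both VMAT, and its part in them was not tested.

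**Figure D2:**
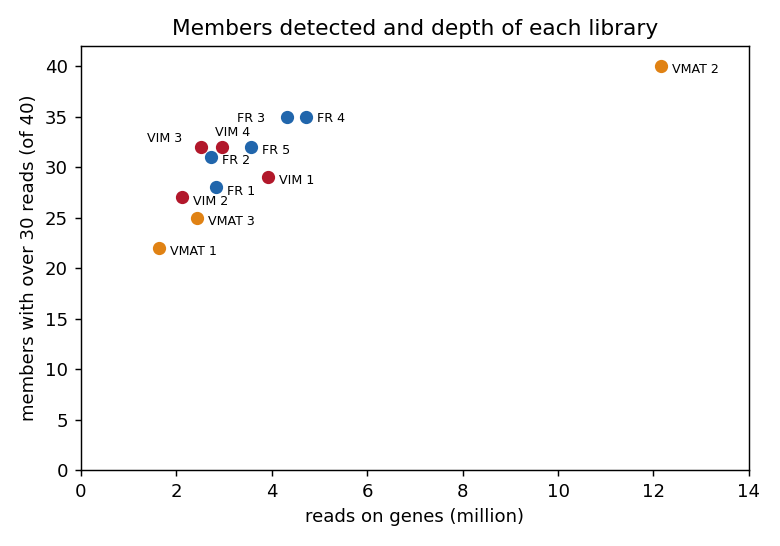
Number of the 40 members with more than 30 reads (vertical axis) against the reads on genes (horizontal axis), 1 point per library, coloured by group. VMAT replicate 1 (22 members) and VMAT replicate 2 (40 members) are at the ends of both axes, and the other libraries lie between 25 and 35 members.

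No member was called differentially expressed (DE) in any comparison. A gene was called with a limma adjusted p up to 0.05 and a difference of 1 or more, either way, in mean log2 of the normalized count plus 1 (log2FC, given below as value ± standard error, first group minus second). This called 0 of 40 members and 0.0% of all genes tested in each of the 3 comparisons. An unadjusted p under 0.05 was found for 1 member (HSPA2) in VIM vs. FR, where 3.78% of all genes had one, for 0 members in VMAT vs. FR (3.62%), and for 1 member (PDIA3) in VIM vs. VMAT (2.98%). With DESeq2 on the recovered whole reads, 1 member (HSPA9) was called in VIM vs. FR, where 6.91% of all genes were, 0 in VMAT vs. FR (4.3%) and 1 (PDIA3) in VIM vs. VMAT (3.93%). With edgeR, 0 members were called in the 3 comparisons, against 0.0%, 0.012% and 0.0131% of all genes. A count of 1 is 2.5% of the members. At an unadjusted p under 0.05, edgeR had 1 member (HSPA9) in VIM vs. FR against 16.8% of all genes, 0 in VMAT vs. FR (13.6%) and 1 (CCT2) in VIM vs. VMAT (10.8%). In normalized counts, groups without overlap were found for 0 members in VIM vs. FR (1.59% of all genes, 0.952% with VIM higher and 0.639% with VIM lower). They were found for 1 member in VMAT vs. FR, where 3.19% of all genes had this (1.96% with VMAT higher, 1.23% with VMAT lower). In VIM vs. VMAT they were found for 1 member, where 4.5% of all genes had this (1.72% with VIM higher, 2.78% with VIM lower).

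The cytosolic HSP90AA1, HSP90AB1 and HSPA8 had levels that overlapped between all groups. HSP90AA1, the stress-inducible cytosolic HSP90, had normalized counts, in the order of the replicates, of 4189.6, 1602, 3762 and 4880.3 in the VIM libraries, 6830.5, 1502 and 3521 in VMAT and 4811, 6046, 2598, 3929 and 2450.4 in FR. In these counts, the highest and the lowest library were both VMAT. With all libraries scaled to the same number of reads on genes, no VMAT library was at either end. The highest was then FR replicate 2 and the lowest VIM replicate 2. From the normalized counts, log2FC was -0.16 ± 0.45 (VIM vs. FR), -0.18 ± 0.63 (VMAT vs. FR) and 0.012 ± 0.74 for VIM against VMAT. HSP90AB1, the constitutive form, was at 3010.4, 1315, 1858 and 753 in the VIM libraries, 9949, 1020.4 and 3092 in VMAT and 1939, 4404, 1826, 1159 and 1241 in FR. VMAT replicate 1 was the highest library, and without it log2FC in VMAT vs. FR was -0.069 in place of 0.76 ± 0.76. Against FR, VIM differed by -0.28 ± 0.60, and against VMAT by -1.04 ± 0.87. HSPA8, the constitutive HSP70, was at 1093, 437, 1233 and 831 in the VIM libraries, 3267, 475 and 427 in VMAT and 475, 511, 662, 819 and 774 in FR. It varied least among the FR libraries, with log2FC values of 0.40 ± 0.76 for VIM against FR and 0.46 ± 1.02 for VMAT against FR, the latter -0.49 without VMAT replicate 1, which was again the highest. VIM against VMAT gave -0.061 ± 1.13. HSP90AA1 and HSP90AB1, and HSPA8 and HSPA2, are similar genes, and the table does not show how reads shared by such copies were counted.

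The partners of HSP70 were less even. HSPA2, an HSP70 best known from germ cells, was at 1481, 851, 776 and 536 in the VIM libraries, 18.7, 505 and 289 in VMAT and 12.9, 724, 372, 32.3 and 11.5 in FR. It was at 536 or more in every VIM library, whereas FR replicates 1, 4 and 5 and VMAT replicate 1 were at 32.3 or less. In normalized counts, all VIM libraries were above all VMAT libraries, HSPA2 being the only member for which this was so. Of all genes, 1.72% had VIM higher than VMAT without overlap. With all libraries scaled to the same number of reads on genes, the groups overlapped, VMAT replicate 2 being above VIM replicates 2, 3 and 4. The means of the normalized counts were 911 ± 403 (SD, n = 4) for VIM, 271 ± 244 (SD, n = 3) for VMAT and 231 ± 316 (SD, n = 5) for FR. HSPA2 had the smallest p of any member in VIM vs. FR, with a log2FC of 3.63 ± 1.37, a limma adjusted p of 0.902 and an exact two-sided permutation p of 0.0317, 0.514 after adjustment over the 36 such tests. These tests cannot give a p below 0.0079 for VIM with FR, 0.0179 for VMAT with FR or 0.0286 for VIM with VMAT. With each library left out in turn, log2FC lay between 3.01 and 4.47. It was 1.96 with edgeR (adjusted p = 0.421) and 1.96 with DESeq2 (adjusted p = 0.354). VIM vs. VMAT gave 2.58 ± 1.42 for it, and edgeR and DESeq2 gave 1.38 and 1.82. The exact two-sided permutation p there was 0.0571, the smallest that the test can give for these groups. It was named by Supplementary File S2 and not by S1, so the cut order of S1 did not bear on its choice.

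HSPH1, the HSP110 that exchanges nucleotides on HSP70, was at 3.68, 1193, 594 and 727 in the VIM libraries, 9.34, 143 and 3.54 in VMAT and 111, 591, 302, 611 and 48.7 in FR. The FR libraries were at 48.7 or more, whereas VIM replicate 1 and VMAT replicates 1 and 3 held 3 to 6 reads. Its log2FC in VMAT vs. FR, -3.59 ± 1.82, had the smallest p there (limma adjusted p = 0.95, exact two-sided permutation p = 0.107), and was -2.23 with edgeR. BAG3, a co-chaperone that links HSP70 to selective autophagy, was at 4.3, 8.15, 399 and 6.84 in the VIM libraries, 6.22, 40.3 and 1.18 in VMAT and 3.23, 455, 239.6, 385 and 120.3 in FR. In VIM and VMAT 1 library each was above 30 reads, against 4 of 5 in FR, and log2FC was -3.75 ± 2.16 in VMAT vs. FR (limma adjusted p = 0.95, exact permutation p = 0.107). BAG4, which restrains death receptor signalling, was above 30 reads in 2, 1 and 2 libraries of VIM, VMAT and FR, and DNAJC13, a J protein of endosomes, in 3, 1 and 1. The ribosome-associated DNAJC2 and DNAJC21, which acts in ribosome maturation, were above 30 reads in every library, at 830.5 to 6426 and at 54.8 to 5178. Of the 10 cytosolic members, 5 had a positive log2FC in VIM vs. FR (median 0.18, all genes -0.12). In VMAT vs. FR these were 7 (median 0.43, all genes 0.014), and with VIM against VMAT 6 (median 0.60, all genes -0.083).

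**Figure D3:**
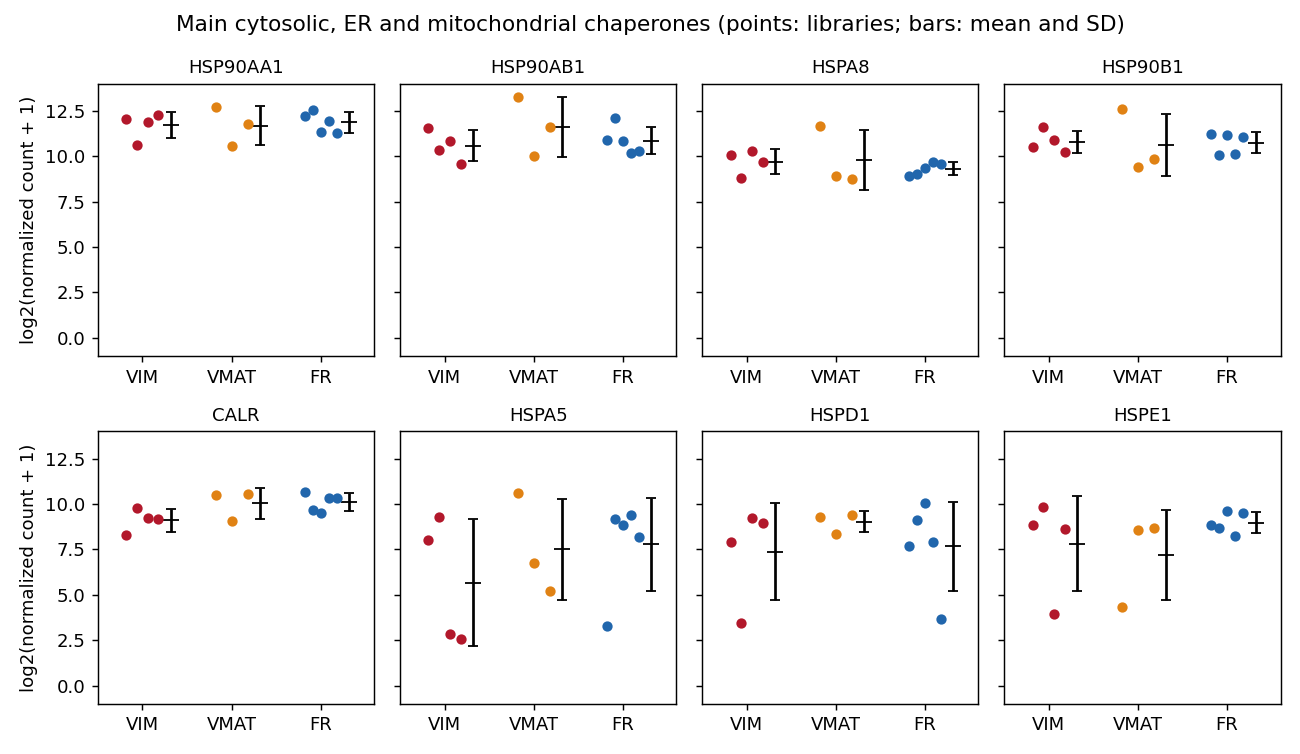
Levels of 8 main chaperones as log2 of the normalized count plus 1 (vertical axis), 1 point per library in the order of the replicates, with the mean and SD of each group as bars. HSPA5, HSPD1 and HSPE1 each have libraries at a normalized count of 14.5 or less, whereas the other 5 genes stay at 307 or more in all 12.

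Subunits of TRiC, the chaperonin that folds actin and tubulin, were low in different libraries. CCT2 was at 3851, 7521, 3457 and 1293 in the VIM libraries, 3862, 772 and 389 in VMAT and 2733, 501, 1519.96, 2159 and 2549 in FR. VIM replicate 2, VMAT replicate 1 and VIM replicate 1 were the highest, VIM replicate 4 lay within the FR range, and log2FC was 1.05 ± 0.60 in VIM vs. FR and 1.68 ± 0.87 in VIM vs. VMAT (limma adjusted p = 0.902 and 0.967). CCT5, a subunit of the same ring, was at 7.98, 3376, 3.62 and 2.93 in the VIM libraries, 9.34, 244 and 4.72 in VMAT and 678, 2.29, 591, 856 and 583 in FR. Only VIM replicate 2, VMAT replicate 2 and 4 of the 5 FR libraries had more than 30 reads of it. Its log2FC of -3.09 ± 2.08 in VIM against FR and of -3.25 ± 1.94 in VMAT against FR did not pass the test (exact two-sided permutation p = 0.333 and 0.25). With edgeR and DESeq2, VIM against FR gave 0.29 and 0.68. The mean of CCT5 was higher in VIM than in FR, at 848 ± 1685 and 542 ± 321, although the mean log2 value was lower, VIM replicate 2 being the highest of all libraries. TCP1, CCT3 and CCT8 were above 30 reads in 9, 9 and 6 libraries. In FR replicate 2, CCT2 and CCT3 were counted at 438 and 90 reads and CCT5, CCT8 and TCP1 at 2, 4 and 4, although the 5 proteins are parts of 1 complex.

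Prefoldin hands newly made actin and tubulin to TRiC. PFDN6 was at 1.84, 805, 891 and 344 in the VIM libraries, 103, 130.2 and 4.72 in VMAT and 295, 219.6, 177, 204 and 424 in FR. It was the only member whose VMAT and FR libraries did not overlap in normalized counts, all VMAT libraries being lower. Of all genes, 1.23% had VMAT lower than FR without overlap. With all libraries scaled to the same number of reads on genes, the groups overlapped, VMAT replicate 2 being above FR replicates 2 and 3. From the normalized counts, log2FC in VMAT vs. FR was -2.56 ± 1.63 (limma adjusted p = 0.95), and PFDN6 is named here after its values were seen. It was in the sheet of S1 that was cut by this comparison, and also in S2. PFDN2 and PFDN5 were above 30 reads in 8 and 4 libraries, and PFDN4 in all 12, at 20.2 to 1799.

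In the ER, the chaperones HSP90B1 and CALR were above 30 reads in every library and HSPA5 was not. HSP90B1, the ER HSP90, was at 1448, 3125, 1905 and 1192 in the VIM libraries, 6193, 677 and 926 in VMAT and 2425, 1091, 2345, 1128 and 2115 in FR. Log2FC was 0.063 ± 0.56 (VIM vs. FR), -0.12 ± 0.82 (VMAT vs. FR) and 0.19 ± 0.92 for VIM against VMAT. CALR, the calcium-binding lectin calreticulin, was at 307, 877, 595 and 568 in the VIM libraries, 1456, 534 and 1526 in VMAT and 1588, 806, 725, 1269 and 1309 in FR. FR replicates 2 and 3 were below the highest VIM library and all other FR libraries above it, and the means were 587 ± 233 (SD, n = 4) for VIM and 1139.5 ± 364 (SD, n = 5) for FR. In VIM vs. FR, log2FC was -0.99 ± 0.73, with a limma adjusted p of 0.902 and an exact two-sided permutation p of 0.0476 (0.514 over the 36 tests). It stayed between -1.21 and -0.71 with each library left out in turn. VMAT vs. FR gave -0.042 ± 0.88, and VIM vs. VMAT -0.95 ± 1.18.

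HSPA5, the ER HSP70 also called BiP, which restrains the sensors of the unfolded protein response, was at 260.3, 628, 6.03 and 4.89 in the VIM libraries, 1549.7, 107 and 35.4 in VMAT and 8.63, 566, 460.2, 677 and 291 in FR. VIM replicates 3 and 4 held 5 reads each and FR replicate 1 held 8, against 385 or more in the other libraries of both groups, so the groups overlapped. Log2FC was -2.10 ± 1.75 (VIM vs. FR), -0.26 ± 1.60 (VMAT vs. FR) and -1.84 ± 2.13 for VIM against VMAT, with exact two-sided permutation p of 0.206, 0.893 and 0.457. Against FR, edgeR and DESeq2 gave -1.05 and -0.81 for VIM. CANX, the membrane-bound lectin calnexin, was above 30 reads in 5 libraries and at 1408 in FR replicate 1, against 1.14 to 119 in the other FR libraries.

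PDIA3 works with calnexin and calreticulin on glycoproteins, and was at 66.3, 1170.3, 1379.8 and 455 in the VIM libraries, 3.11, 85.2 and 27.1 in VMAT and 5.39, 1199.9, 693, 3.03 and 721 in FR. In VMAT, 1 of 3 libraries was above 30 reads, against 4 of 4 in VIM and 3 of 5 in FR. The highest VMAT library was above the lowest VIM library. PDIA3 had the smallest p of any member in VIM vs. VMAT, with means of 768 ± 613 (SD, n = 4) and 38.5 ± 42.2 (SD, n = 3) and a log2FC of 4.45 ± 1.93 (limma adjusted p = 0.967, exact two-sided permutation p = 0.114). With DESeq2 on whole reads, log2FC was 4.38 ± 1.29 (DESeq2 adjusted p = 0.0177), a call that limma and edgeR (adjusted p = 0.452) did not make.

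PDIA4, another disulfide isomerase of the ER, was at 1977, 7931, 4010.4 and 2735 in the VIM libraries, 557, 1421 and 3382 in VMAT and 1183, 3298, 1622, 2645 and 3265 in FR. VMAT replicate 1 was the lowest library, and log2FC in VIM vs. VMAT was 1.38 ± 0.82, or 0.72 without that library (limma adjusted p = 0.967 with it). PDIA6 was above 30 reads in 10 libraries, and at 12.9 and 26.3 in FR replicates 1 and 3 against 643 to 2725 in the others of FR. PPIB, the cyclophilin of the ER, was above 30 reads in 6 libraries. DNAJC3, which binds misfolded chains and limits the arm of the response led by PERK, was at 21.7 in VIM replicate 3 and 24.3 in FR replicate 5, and at 463 or more elsewhere. DNAJC1, a J protein of the ER membrane, was at 115 to 2779. Among the 10 ER members, log2FC was positive for 7 with VIM against FR, 3 with VMAT against FR and 5 with VIM against VMAT, and the medians were 0.39, -0.19 and -0.16.

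The mitochondrial chaperones were each low in some libraries. HSPA9, the mitochondrial HSP70 that pulls proteins through the import channel, was at 0, 1, 2 and 0 reads in the VIM libraries, 1, 560 and 1 in VMAT and 426, 1, 662, 111 and 2 in FR. Thus 3 of 5 FR libraries, VMAT replicate 2 and no VIM library held more than 30 reads, and FR replicates 2 and 5 were as low as VIM. The normalized counts were 1.01 ± 1.21 (SD, n = 4) for VIM, 24.8 ± 39.3 (SD, n = 3) for VMAT and 178 ± 219.98 (SD, n = 5) for FR. Summed over libraries, 3 reads in VIM and 1202 in FR gave a level in FR that was 236 times that in VIM after scaling (95% interval 80.4 to 1144, exact binomial method, counting error only), most of it from 2 libraries. In VIM vs. FR log2FC was -4.33 ± 2.26 in limma (adjusted p = 0.902, exact two-sided permutation p = 0.0952) and -7.55 ± 1.95 in DESeq2 on whole reads, which called it (adjusted p = 0.00379). Leaving out each library in turn gave log2FC values of -5.33 to -3.40 in limma. In edgeR the adjusted p was 0.281. HSPA9 was named only by S1, in the sheet cut by VMAT vs. FR.

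HSPD1 and HSPE1, the HSP60 and HSP10 that form the folding chamber of the matrix, were not lost from the same libraries. HSPD1 was at 242, 9.78, 592 and 495 in the VIM libraries, 632, 328 and 669.7 in VMAT and 204, 546, 1050.3, 236 and 11.5 in FR. HSPE1 was at 451, 923, 14.5 and 390.1 in the VIM libraries, 18.7, 379 and 409 in VMAT and 451, 414, 774, 299.7 and 728 in FR. The low libraries of HSPD1 were VIM replicate 2 and FR replicate 5, and those of HSPE1 were VIM replicate 3 and VMAT replicate 1. For HSPD1 log2FC was -0.29 ± 1.51 (VIM vs. FR), 1.35 ± 1.41 (VMAT vs. FR) and -1.64 ± 1.59 for VIM against VMAT. For HSPE1 it was -1.16 ± 1.15, -1.79 ± 1.32 and 0.63 ± 1.76 in the same order, and the smallest limma adjusted p of these 6 values was 0.904. With edgeR and DESeq2 the values of HSPD1 in VMAT against FR were 0.27 and 0.43, and those of HSPE1 in VIM against FR -0.42 and -0.26. The summed normalized count of the 3 genes was 780.1 ± 155 for VIM (SD, n = 4), 837 ± 219.6 for VMAT (SD, n = 3) and 1120.5 ± 633 for FR (SD, n = 5), with overlapping ranges.

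**Figure D4:**
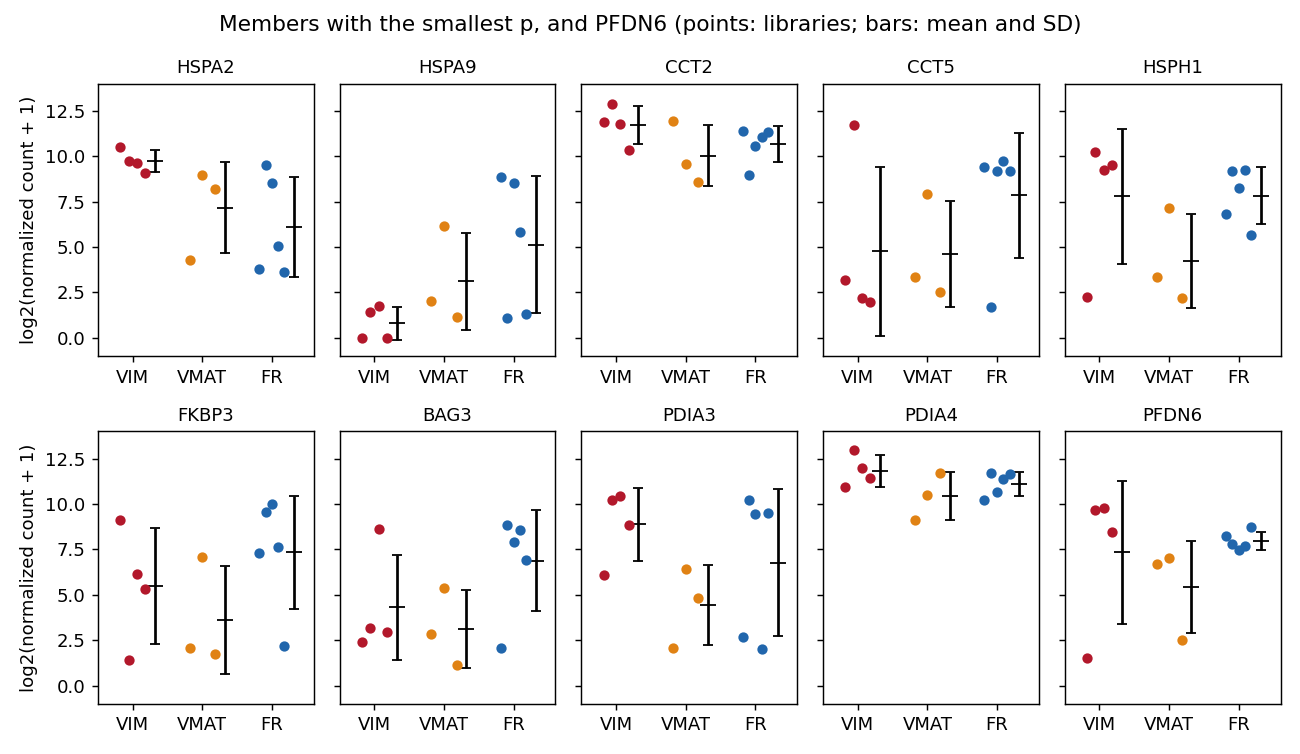
Levels, as log2 of the normalized count plus 1 (vertical axis), of the members with the smallest limma p in any comparison and of PFDN6, with 1 point per library and the mean and SD of each group as bars. HSPA2 is high in all 4 VIM libraries, HSPA9 is near 0 in all 4, and for most genes single libraries lie far from the others of their group.

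Of the nuclear members, DNAJC8 and PPIG, which are found with splicing factors, were above 30 reads in all libraries, at 808 to 7481 and 729 to 3504. FKBP3, a nuclear prolyl isomerase, was at 549, 1.63, 68.7 and 38.1 in the VIM libraries, 3.11, 133 and 2.36 in VMAT and 159.6, 762, 1022, 195 and 3.58 in FR. Above 30 reads were 3 VIM, 1 VMAT and 4 FR libraries, and VMAT vs. FR gave a log2FC of -3.72 ± 2.09 (limma adjusted p = 0.95, exact two-sided permutation p = 0.0714). DNAJC17 and PPIL4 were above 30 reads in 6 and 8 libraries.

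Outside protein folding, FKBP6, which serves the piRNA pathway of germ cells, was above 30 reads in 2 of 4 VIM, 2 of 3 VMAT and 4 of 5 FR libraries. HSPB11, a subunit of the intraflagellar transport complex, and PPIP5K2, an inositol pyrophosphate kinase, were above 30 reads in all libraries. Both were highest in VMAT replicate 1, at 1827 and 5664.

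VMAT replicate 1 was the highest library for 12 of the 15 members that were above 30 reads throughout. With all libraries scaled to the same number of reads on genes in place of the authors' size factors, it was the highest for 8 of 15. It also had the most members at 3 reads or fewer, 14 of 40, against 0 in VMAT replicate 2 and 1 to 9 in the other libraries. Without VMAT replicate 2, the number of members at an unadjusted p under 0.05 in VMAT vs. FR was 5 (CCT5, DNAJC8, FKBP3, HSP90AB1 and HSPH1) in place of 0, where 5.37% of all genes had one. The limma adjusted p of each was 0.818.

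Over all 40 members, log2FC was positive for 20 with VIM against FR, 16 with VMAT against FR and 21 with VIM against VMAT. The medians were 0.010, -0.22 and 0.086 in this order, against -0.12, 0.014 and -0.083 over all genes tested. For the 25 members named by S2 they were 0.063, -0.12 and 0.19, against 0.024, -0.052 and 0.18 over all genes named by S2. Of the 18 members in the sheet cut by VMAT vs. FR, 3 had a positive log2FC in that comparison. VIM vs. FR and VMAT vs. FR share the FR libraries. A log2FC of 1 or more, either way, was found for 19, 21 and 25 members, or 47.5%, 52.5% and 62.5%, against 54.6%, 55.9% and 57.6% of all genes. For all genes with a name, as every member has, the shares were 48.7%, 48.5% and 54.2%.

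**Figure D5:**
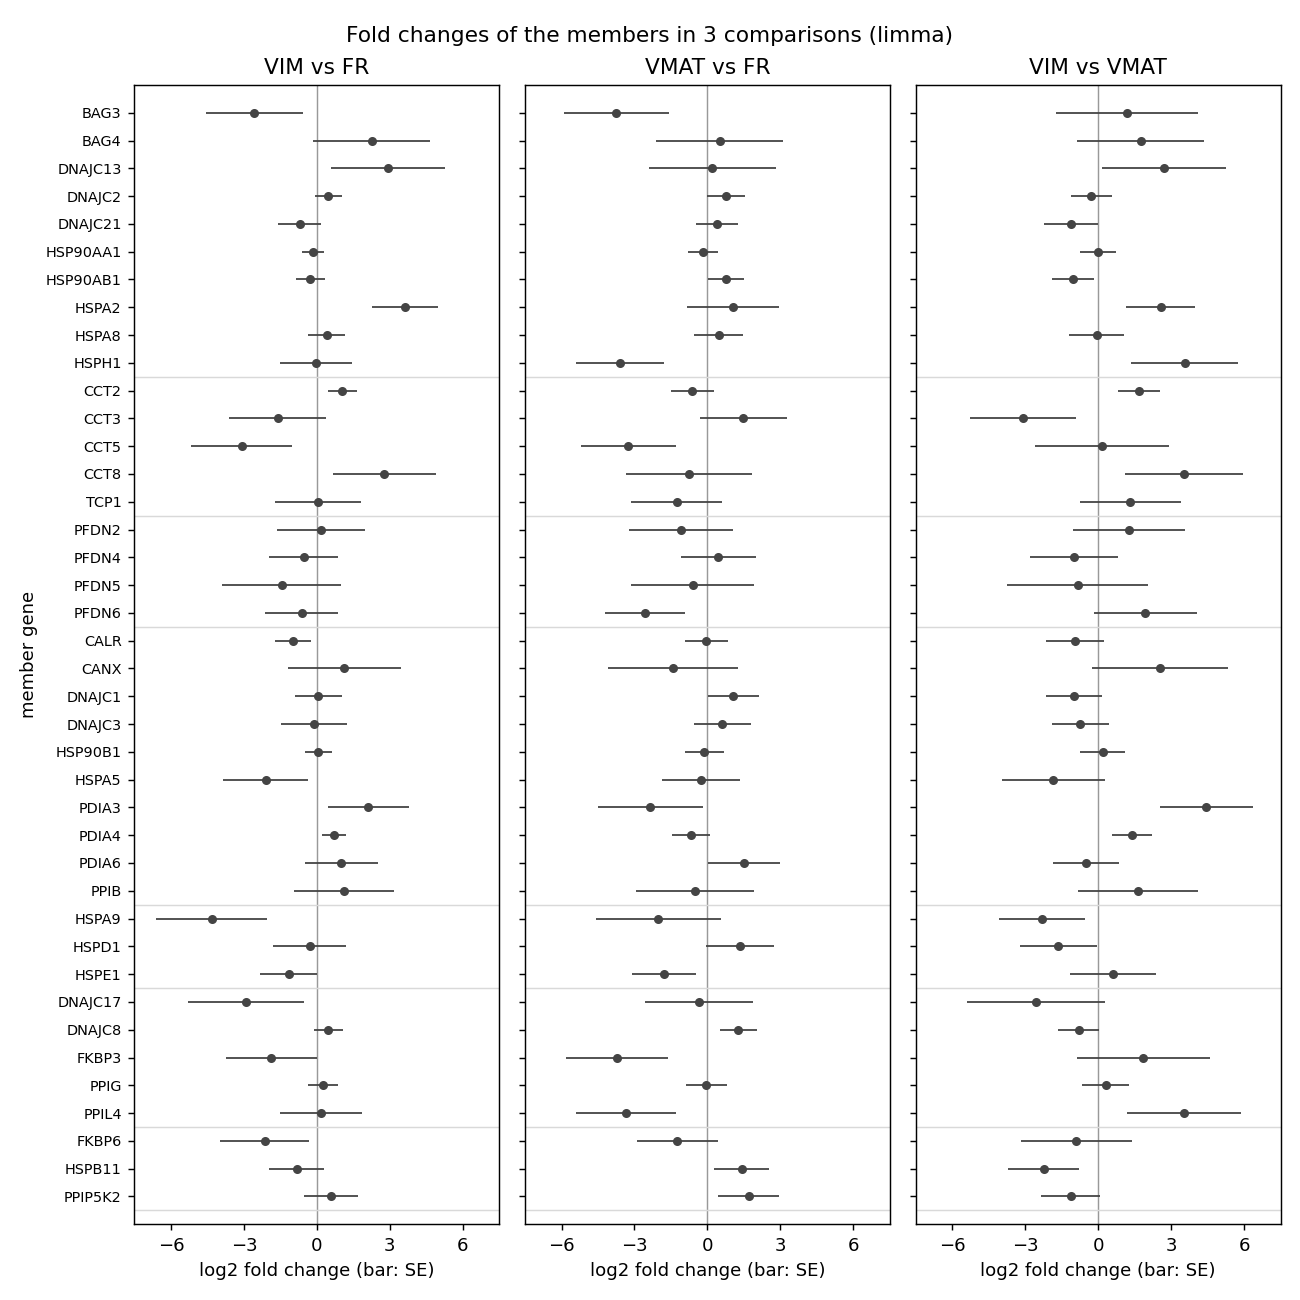
Log2 fold change (horizontal axis) of the 40 members (rows, grouped by role) in the 3 comparisons of groups, with bars for the standard error from limma. In every comparison, points are on both sides of 0 in every group of more than 3 genes, and the bars differ widely in length between members.

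Partners of these chaperones were looked up in fixed lists of 57 genes, of which 19 had a name. None was called DE in any comparison. An unadjusted limma p under 0.05 was found for 1 of the 19 in each, where 3.78%, 3.62% and 2.98% of all genes had one. PTGES3, the p23 co-chaperone of HSP90, was at 1559, 2841, 1416 and 1559 in the VIM libraries, 469.9, 969 and 3469 in VMAT and 799.99, 181, 548, 187 and 343 in FR. All VIM libraries were above all FR libraries, as for 0.952% of all genes, and log2FC was 2.34 ± 0.79 (limma adjusted p = 0.902). CLPX, the unfoldase of the mitochondrial protease ClpXP, was at 6.75, 97.8, 1262 and 63.6 in the VIM libraries, 2682, 365 and 1026 in VMAT and 31.3, 398, 6.16, 439 and 569 in FR. VMAT replicates 1 and 3 were above all FR libraries, and log2FC was 3.08 ± 1.49 for VMAT against FR and -3.50 ± 1.63 in VIM vs. VMAT, with limma adjusted p of 0.95 and 0.967. By list, log2FC in VIM vs. FR was positive for 5 of 6 cytosolic partners, 1 of 7 ER partners (P4HB), 1 of 3 mitochondrial ones and 2 of 3 genes of the unfolded protein response. In VMAT vs. FR these numbers were 3, 1, 3 and 2, and with VIM against VMAT they were 3, 1, 0 and 2.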

How the data were processed

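Messenger RNA of 12 pools of horse oocytes (4 VIM, 3 VMAT and 5 FR) was analysed. The authors trimmed the reads with Trim Galore 0.6.7, used STAR 2.7.10b for mapping to the EquCab3.0 assembly (release 108), processed unique molecular identifiers with UMI-tools 1.1.2 and counted reads per gene with RSEM 1.3.1. The deposited signal is a normalized count: each sample's counts were divided by that sample's size factor from DESeq2. All values were whole multiples of one step per sample (100.0%, within 1e-06), so whole reads were recovered. The reads are 3′ tags, so levels were not divided by length and were compared between libraries only. Intervals and floors cover counting error only.

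Genes with a value above 0 in n or more samples, n being the size of the smaller group, were tested with limma 3.58.1 (eBayes with trend, R 4.3.3) on log2 of the normalized count plus 1, over all genes, with the samples of both groups only. Fold changes are on this scale. Single members were tested with exact two-sided permutation tests (36 in all, Benjamini-Hochberg adjusted). edgeR 4.0.16 and DESeq2 1.42.0 on recovered reads, pseudocounts of 0.5 and 10, other filters, equal totals, a single fit of 12 samples, a replicate block and leaving out each sample were alternatives. Fold changes are printed for the 4 members with the smallest p in each comparison and for HSP90AA1, HSP90AB1, HSPA8, HSPA5, HSP90B1, CALR, HSPD1 and HSPE1. Partner genes are named at an unadjusted p under 0.05. PFDN6 was added for its separation in normalized counts.

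Gene names were taken from S1 and S2, which agree in 7898 of 7898 pairs compared. Truncated lists of S2 were paired from their start. S1 also holds the authors' fold changes and p-values, which were not used except for the order of the rows. The members and lists were chosen with earlier results of these data known. The tests were also run on simulated counts whose replicates varied far less than these pools. That check does not show how the tests behave on these data. Sequences and gene positions were not analysed here, since the reference table used here has no Ensembl identifiers. Scripts used Python 3.11.15, numpy 2.4.6, pandas 2.3.3, scipy 1.17.1 and matplotlib 3.10.9.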

Additional observations from a re-analysis of the deposited data

Results flagged for a closer look

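For each member, the VIM and the FR libraries were searched for 1 library whose gap to the nearest other took up most of the range of the log2 values (Dixon's test at 95%). Of the 80 groups tested, 13 (16.2%) held such a library. Over all genes tested in VIM vs. FR the share was 22.6%. The test assumes normal values, for which chance would give 4 of 80, an assumption that genes near 0 in some libraries do not meet.

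A single library was far above the others of VIM for 3 members. BAG3 had a normalized count of 399 in VIM replicate 3, against 4.3 to 8.15 in the other VIM libraries. For CCT5, VIM replicate 2 was at 3376 and the others at 2.93 to 7.98. For DNAJC17, VIM replicate 1 was at 366 and the others at 1.21 to 2.93.

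In VIM, a single library was far below the others for 6 members. DNAJC21 was at 54.8 in replicate 4 and at 1453 to 1928 in the others. HSPH1 was at 3.68 in replicate 1 and at 594 to 1193 in the others. PFDN2 was at 2.93 in replicate 4 and at 175 to 359 in the others. PFDN6 was at 1.84 in replicate 1 and at 344 to 891 in the others. PPIL4 was at 3.07 in replicate 1 and at 509 to 571 in the others. TCP1 was at 1.63 in replicate 2 and at 432 to 748 in the others. VIM replicate 1 was the low library for HSPH1, PFDN6 and PPIL4.

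In FR, this was so for 4 members. BAG3 was at 3.23 in replicate 1 and at 120.3 to 455 in the others. CCT5 was at 2.29 in replicate 2 and at 583 to 856 in the others. HSPA5 was at 8.63 in replicate 1 and at 291 to 677 in the others. PPIL4 was at 5.01 in replicate 5 and at 198 to 527 in the others. BAG3, CCT5 and PPIL4 had such a library in both groups.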

How the results depend on the processing

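The number of members called DE was 0 in each comparison under every alternative but DESeq2, which called 1 (HSPA9), 0 and 1 (PDIA3). With any library left out it was 0 to 0. Members at an unadjusted p under 0.05 (1, 0 and 1) were 2 in both comparisons with FR without a filter (3.1% and 3.44% of all genes). In VIM vs. VMAT they were 2 with a normalized count of at least 10 (3.91% of all genes) and 2 with equal totals (2.77%). With DESeq2 they were 2, 2 and 6, where 12.9%, 10.8% and 11.1% of all genes had one. With a library left out, they were 1 to 3 in VIM vs. FR, with shares of all genes given in brackets. They were 3 without VIM replicate 2 (3.51%) or FR replicate 2 (3.94%), and 2 without VIM replicate 4 (3.68%) or FR replicate 5 (3.53%). In VMAT vs. FR they were 0 to 5: 5 without VMAT replicate 2 (5.37%), 3 without FR replicate 5 (2.79%), 1 without FR replicate 1 (2.67%) or 2 (2.77%). In VIM vs. VMAT they were 0 to 3, with 0 without VIM replicate 3 (2.01%). They were 3 without VIM replicate 1 (2.73%) or VMAT replicate 2 (3.98%), and 2 without VIM replicate 4 (2.25%) or VMAT replicate 3 (4.03%). The members' median log2 fold change then lay between -0.39 and 0.13, -0.31 and 0.33, and -0.19 and 0.29. Equal totals moved the median of all genes in VIM vs. VMAT from -0.083 to -0.18. In VMAT vs. FR it was 0.014, and -0.18 and -0.21 with DESeq2 and edgeR, which differ in more than the scaling. Looking up further members in the reference annotation was not run, since it holds no matching identifiers. The cause of these differences was not tested.

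Same-numbered samples did not deviate together (correlations of -0.030 to 0.013 over 10 pairs, 2 of 20 samples correlating best with their own number), so the numbers were not treated as pairs. With the replicate block, the median in VIM vs. FR was -0.28 and 0 members were called. Members at an unadjusted p under 0.05 in VMAT vs. FR numbered 1, where 2.1% of all genes had one. A sample whose number has no counterpart does not bear on this difference.

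Of 36 member fold changes, 20 kept their direction throughout. The log2 fold change of CCT5 in VIM vs. FR was 0.29 with edgeR and 0.68 with DESeq2. Small values also turned. HSP90B1 was at -0.060 with equal totals and -0.079 with edgeR in VIM vs. FR. With VMAT against FR edgeR gave 0.045 and DESeq2 0.53, and in VIM vs. VMAT -0.095 and -0.43. HSP90AA1 was at 0.0014 with DESeq2 in VMAT vs. FR, and at -0.045 with equal totals, -0.17 with the replicate block and -0.13 with DESeq2 in VIM vs. VMAT. In VMAT vs. FR, HSPA5 was at 0.42 with the replicate block and 0.51 with DESeq2, and CALR at 0.12 and 0.060. With a library left out, the direction turned with VIM against FR for HSP90AA1 (-0.35 to 0.19), HSP90AB1 (-0.60 to 0.062), HSP90B1 (-0.20 to 0.26), HSPD1 (-1.29 to 1.03) and HSPE1 (-1.84 to 0.12); with VMAT against FR for CALR (-0.31 to 0.45), HSP90AA1 (-0.70 to 0.39), HSP90AB1 (-0.069 to 1.57), HSP90B1 (-1.11 to 0.48), HSPA5 (-1.80 to 0.90) and HSPA8 (-0.49 to 0.98); with VIM against VMAT for HSP90AA1 (-0.56 to 0.53), HSP90B1 (-0.42 to 1.18), HSPA8 (-0.58 to 0.89) and HSPE1 (-0.82 to 1.91). Depth limits single values: 3 reads stand for 9.34 in VMAT replicate 1.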
